A study of Homo sapiens with 4 samples.

Results

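The genes described here encode the proteins of the mitochondrial ribosome. They were taken as every mRNA row of the deposited table whose symbol begins with MRPL or MRPS followed by a digit, which gave 76 of 40205 rows, 47 for the large subunit (MRPL) and 29 for the small subunit (MRPS). All 76 reached at least 1 RPKM in at least 1 library, the level required for testing, as did 16098 rows of the whole table. RPKM scales a gene's reads by the length of its model and by the reads of the library, so levels of different genes can be set side by side.

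Poly(A) RNA was sequenced from 2 human glioblastoma lines, U87MG and U251, with 1 library for each line and arm. KD cells carried lentiviral sh-SRSF1, a short hairpin against the splicing factor SRSF1, and cells called WT in the labels carried the sh-NC control hairpin from the same kind of virus. Every culture was thus transduced (multiplicity of infection 20) and puromycin-selected, and each arm of a line was 1 stable line. A difference between KD and WT within a line has no replicate check and gets no p-value, and the lines serve as the 2 replicates of the test across lines.

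The mitochondrial ribosome translates the few proteins encoded by mitochondrial DNA, all of them parts of the respiratory chain and ATP synthase. Its ribosomal RNAs are made inside the organelle, while every one of its proteins is encoded in the nucleus, made in the cytosol and imported. Compared with its bacterial ancestor it has lost ribosomal RNA and gained proteins that bacteria lack. Genes numbered like a bacterial ribosomal protein (MRPL1, MRPL16) are mostly its counterparts, and most of those with high numbers (MRPL37, MRPL44) were added in the mitochondrial lineage. Cells need it for oxidative phosphorylation, and tumour cells differ in how far they rely on that.

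The 76 genes are spread over 21 chromosomes, and promoters are shown here to set their start regions side by side. The RefSeq promoter table (GRCh38.p14) had 68 of the 76. For the 5 members the results below turn on most, the 250 bases before the start are given 5′ to 3′ on the gene's strand. Capitals mark each match to any motif searched that lies wholly within these 250 bases. A match that runs past the start, such as that of MRPL16 to the ETS core described below, is left in lower case. MRPL1 lies at chr4:77862580-77862829 (+), MRPL16 at chr11:59810779-59811028 (-), MRPL12 at chr17:81703117-81703366 (+), MRPL53 at chr2:74472681-74472930 (-) and MRPL36 at chr5:1799838-1800087 (-).
MRPL1: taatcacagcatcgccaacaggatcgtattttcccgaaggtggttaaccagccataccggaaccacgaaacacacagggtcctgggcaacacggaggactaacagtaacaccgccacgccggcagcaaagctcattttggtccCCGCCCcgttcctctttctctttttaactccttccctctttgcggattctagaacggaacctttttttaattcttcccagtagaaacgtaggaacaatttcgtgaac
MRPL16: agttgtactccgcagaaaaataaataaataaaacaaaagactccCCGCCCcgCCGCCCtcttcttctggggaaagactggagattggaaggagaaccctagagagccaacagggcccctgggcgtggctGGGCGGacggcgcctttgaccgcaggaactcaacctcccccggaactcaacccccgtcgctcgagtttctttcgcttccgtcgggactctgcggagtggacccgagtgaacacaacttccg
MRPL12: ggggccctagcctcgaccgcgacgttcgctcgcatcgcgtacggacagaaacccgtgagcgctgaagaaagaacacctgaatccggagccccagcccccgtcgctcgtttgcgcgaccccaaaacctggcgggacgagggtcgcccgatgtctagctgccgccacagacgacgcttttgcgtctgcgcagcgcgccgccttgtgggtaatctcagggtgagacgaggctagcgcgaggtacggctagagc
MRPL53: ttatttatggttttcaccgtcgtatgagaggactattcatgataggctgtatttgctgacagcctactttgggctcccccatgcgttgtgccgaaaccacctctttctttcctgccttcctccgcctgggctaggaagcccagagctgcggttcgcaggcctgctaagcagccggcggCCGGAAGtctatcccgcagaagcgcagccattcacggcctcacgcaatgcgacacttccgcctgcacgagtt
MRPL36: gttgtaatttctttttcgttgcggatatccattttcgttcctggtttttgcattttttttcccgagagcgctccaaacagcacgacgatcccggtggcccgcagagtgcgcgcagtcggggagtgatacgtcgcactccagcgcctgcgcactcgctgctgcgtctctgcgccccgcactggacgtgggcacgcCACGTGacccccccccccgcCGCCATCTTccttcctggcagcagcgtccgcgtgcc

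The motifs were searched on both strands from 250 bases before to 50 bases after the start. A gene was counted if any of its promoters matched, with 84 promoters for the 68 members and 14317 for the 9711 measured mRNA genes. Median GC content of the promoters was 60.2% and 64.7%, and the shares below were not matched for GC or number of promoters. Of the 68 members with a promoter, 29 (42.6%) held CCGGAAG, the core bound by GABPA and other ETS factors, against 23.5% of 9711 measured mRNA genes and 12.2% of all 27305 genes with a promoter. AAGATGGCG, the core bound by YY1, was in 13 members (19.1%), against 4.92% of measured mRNA genes and 2.14% of all. GCGCATGCG, the NRF1 core, was in 3 members (4.41%), against 4.45% of measured mRNA genes and 2.34% of all. The SP1 core GGGCGG was in 42 members (61.8%), against 77.3% of measured mRNA genes and 48.3% of all. CACGTG was in 10 members (14.7%), against 12.7% and 8.77%, and TATAAA was in 4 members (5.88%), against 8.63% and 13.99%. In these windows the ETS and YY1 cores were thus more frequent among the members than among measured mRNA genes and the SP1 core less so, and the NRF1 core had a similar share. Neither core was exclusive to a subunit, with ETS in 17 of 40 large and 12 of 28 small subunit promoters and YY1 in 8 and 5. A match describes the letters only, and no binding was measured.

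All YY1 matches are shown in windows of 30 bases, because their place was much alike: 11 of the 13 genes carried the core on the gene's own strand, and most matches lay just after the start. The capitals mark the core, and the 2 opposite-strand matches, in MRPL32 and MRPL36, read CGCCATCTT. The position of the first base of the match, counted from the start, ran between -223 (MRPL32) and 36 (MRPL22).
MRPL22 at chr5:154941093-154941122 (+): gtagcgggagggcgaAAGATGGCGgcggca
MRPL32 at chr7:42932143-42932172 (+): acccgcgctcCGCCATCTTtacccgaagag
MRPL36 at chr5:1799854-1799883 (-): ccccccccgcCGCCATCTTccttcctggca
MRPL38 at chr17:75904859-75904888 (-): ggccggagggAAGATGGCGgcgccctggtg
MRPL42 at chr12:93467512-93467541 (+): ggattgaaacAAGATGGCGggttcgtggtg
MRPL46 at chr15:88467361-88467390 (-): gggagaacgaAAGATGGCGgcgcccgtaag
MRPL50 at chr9:101398576-101398605 (-): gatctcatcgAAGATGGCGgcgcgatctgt
MRPL52 at chr14:22829779-22829808 (+): acgatgacccAAGATGGCGgagccgtgatt
MRPL52 at chr14:22829813-22829842 (+): acccagattcAAGATGGCGacttcctgctt
MRPS10 at chr6:42217833-42217862 (-): cgggaccggcAAGATGGCGgcgcggacagc
MRPS18A at chr6:43687763-43687792 (-): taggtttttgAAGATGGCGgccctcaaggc
MRPS18B at chr6:30617853-30617882 (+): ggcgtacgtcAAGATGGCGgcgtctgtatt
MRPS24 at chr7:43869479-43869508 (-): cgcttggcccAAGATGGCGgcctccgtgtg
MRPS30 at chr5:44808950-44808979 (+): atcgcgggcaAAGATGGCGgcggccaggtg

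The libraries were of like depth, between 25099799 and 27953878 reads as recovered from the RPKM steps, and members carried 156 to 5559 reads in a library (median 1096). SRSF1 itself stood at 14.6 RPKM in U87MG KD cells and 88.3 RPKM in U87MG WT cells, and at 15.8 RPKM in U251 KD cells and 109 RPKM in U251 WT cells. Across the lines it fell by 2.62 ± 0.16 on the log2 scale (SE, 2 libraries per arm, limma, adjusted p = 0.00217). Of the identity genes, VIM was between 1065 and 1675 RPKM. NES and SOX2 were at or above 47.9 RPKM in U251 and at or below 1.79 RPKM in U87MG, GFAP was at or below 1.47 RPKM and S100B at or below 0.0946 RPKM in every library, and markers of neurons (RBFOX3), leukocytes (PTPRC) and endothelium (PECAM1, CDH5) were at or below 0.405 RPKM, with the neuronal SYT1 at 3.21 to 6.76 RPKM. CD68 stood at 111 and 62.4 RPKM in U87MG KD and WT cells and at 10.7 and 8.52 RPKM in U251 KD and WT cells.

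Mitochondrial ribosomal protein mRNAs spanned a wide range of levels within each library, although the assembled particle holds most of its proteins in equal number. In WT cells the highest member was 38.8-fold above the lowest in U87MG and 17.0-fold above it in U251. The 3 highest genes of the large subunit by mean level were MRPL18, a protein of the central protuberance, MRPL33 and MRPL51, and those of the small subunit were MRPS15, MRPS33 and MRPS22. MRPS15 was the highest member, at 222 RPKM in U87MG KD and 196 RPKM in U87MG WT cells, and at 143 RPKM in U251 KD and 145 RPKM in U251 WT cells. The lowest by mean level were MRPL22, which lines the polypeptide exit tunnel, MRPL2 and MRPL55 in the large subunit, and MRPS25, MRPS14 and MRPS36 in the small subunit. MRPL22 stood at 7.85 and 7.80 RPKM in U87MG KD and WT cells, and at 12.6 and 10.3 RPKM in U251 KD and WT cells. The order of levels was largely kept between the lines (Spearman's rho 0.86 over the 76 genes in WT cells, a description with the libraries shared by all points).

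SRSF1 knockdown was accompanied by small differences in most members, and no member passed the test across the 2 lines. With limma on log2(RPKM + 1), the cell line as a block and Benjamini-Hochberg adjustment over 16098 rows, 0 of 76 members had an adjusted p under 0.05, where 1.16% of all rows were called higher and 2.61% lower in KD. At an unadjusted p under 0.05, 3 members were higher in KD (MRPL53, MRPS36 and MRPL36; all rows: 8.29%) and 4 lower (MRPL1, MRPL37, MRPL30 and MRPL38; all rows: 12.8%). The lowest adjusted p from limma was 0.109, for MRPL53. Standard errors of single members, moderated by limma across genes, ran between 0.15 and 0.26 on the log2 scale, with 1 residual degree of freedom per gene. Differences well above that size also went uncalled, such as 0.60 ± 0.18 (SE, limma) for MRPL53. The count of 0 therefore does not show that such differences are absent. When mRNA rows alone entered the fit, MRPL1 was called lower (limma, adjusted p = 0.044). In bulk cultures such as these, fewer cells with a transcript and less of it per cell cannot be told apart.

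**Figure D1:**
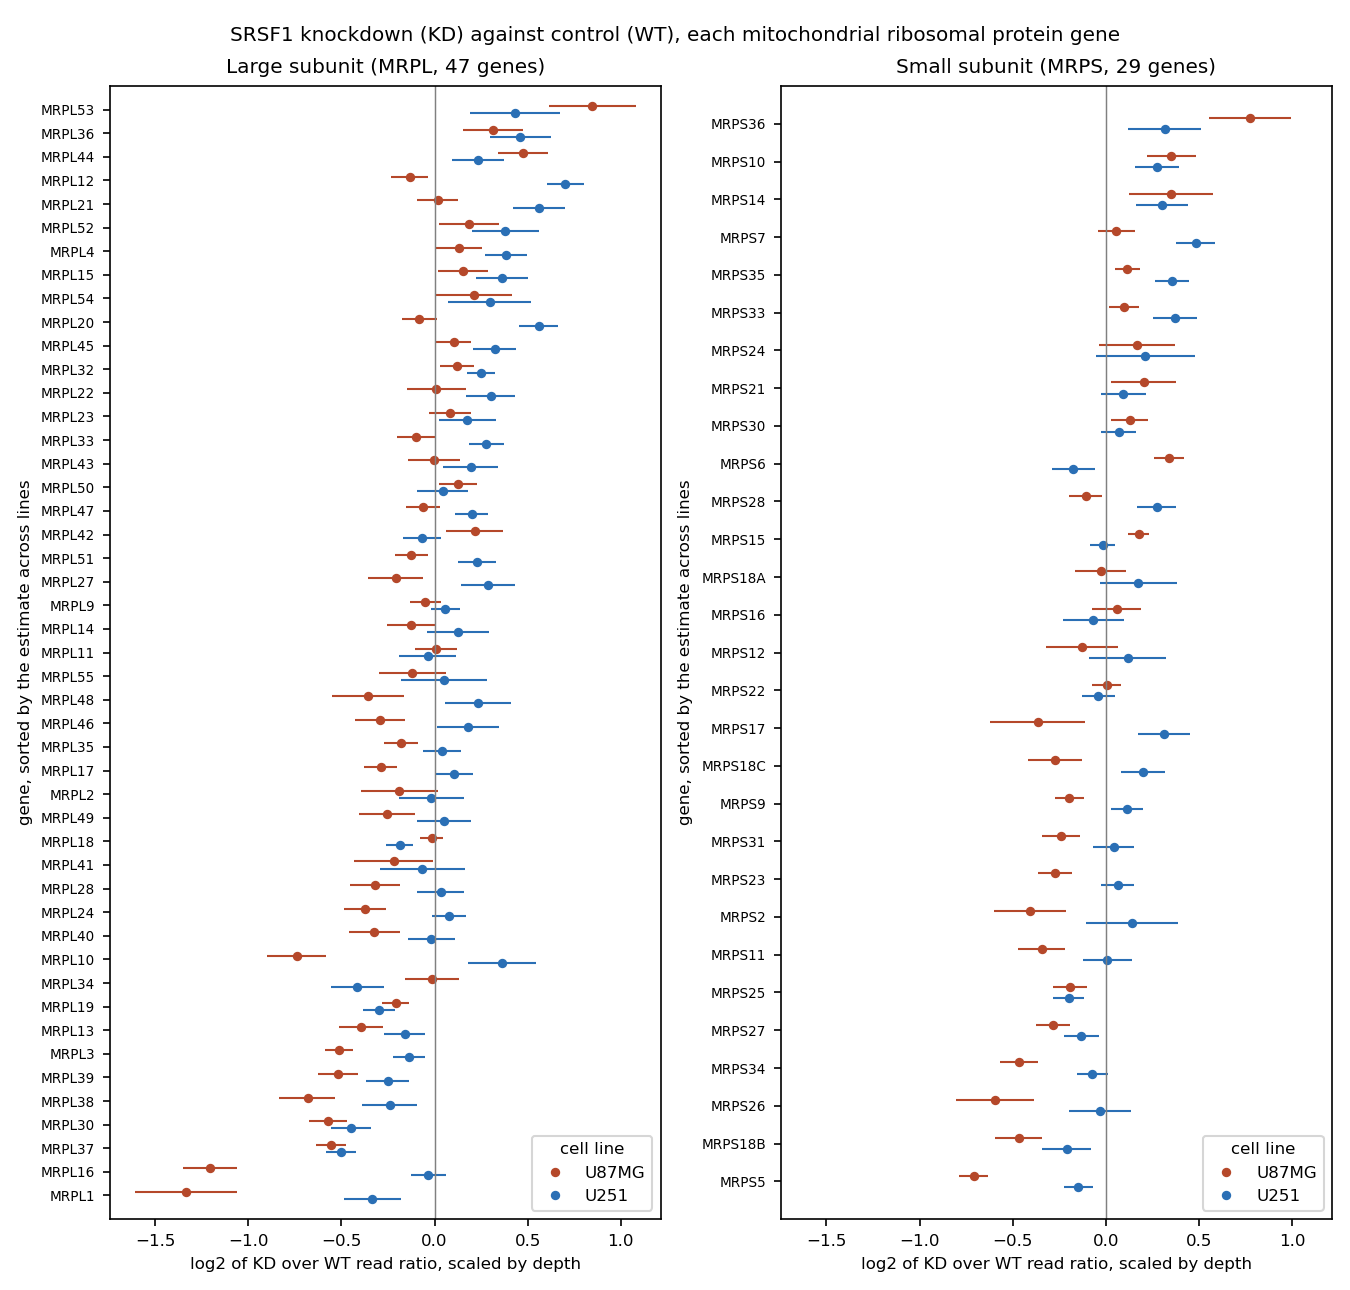
Each row is a mitochondrial ribosomal protein gene, large subunit on the left and small subunit on the right, sorted by the estimate across lines; points give the log2 ratio of KD over WT reads scaled by depth in U87MG (red) and U251 (blue), with 95% intervals of counting error only. Most points lie within 0.5 of 0, MRPL1 and MRPL16 stand apart on the low side in U87MG, and many genes have U87MG points left of their U251 points.

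The lines differed in where the members lay. In U87MG, 48 of 76 members were lower in KD than in WT (all rows: 55.5%), and the median log2 ratio was -0.12, against -0.053 over all rows. U251 had 26 of 76 members lower in KD than in WT (all rows: 50.5%), with a median log2 ratio of 0.10 against -0.0037 over all rows. With trimmed-mean rescaling, where the median of all rows was 0 in each line, the U87MG split was 41 members lower and 35 higher in KD with a median of -0.03 (all rows: 7896 of 16098 lower), and the U251 split was 26 lower and 50 higher with a median of 0.11. Set by set, 20 members were lower in KD in both lines (all rows: 36.5%), 22 were higher in both (29.3%), 28 were lower in U87MG and higher in U251 (18.5%), and 6 were higher in U87MG and lower in U251 (13.2%). Scaled by depth alone, the pattern of lower in U87MG and higher in U251 held the largest number of members. Of these, MRPL9, MRPL20, MRPL43, MRPL47 and MRPS18A had U87MG log2 ratios between -0.080 (MRPL20) and -0.0043 (MRPL43). The rank of this pattern thus depends on the scaling, and the split was not counted after trimmed-mean rescaling. The difference between the lines was not tested, since each line has 1 library per arm. Across the 76 genes the ratios of the lines had a Spearman's rho of 0.49, against 0.55 over 11816 mRNA rows, both as descriptions.

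The ratios of the members were less spread than those of all mRNA rows tested, which were not matched to the members for level. The SD of the log2 ratios was 0.34 in U87MG and 0.24 in U251 among the members, against 0.50 and 0.40 among mRNA rows tested. Lower and upper quartiles of the members were -0.31 and 0.10 in U87MG, and -0.05 and 0.28 in U251. Those of cytosolic ribosomal protein genes were -0.09 and 0.12 in U87MG, and 0.02 and 0.28 in U251. For nuclear oxidative phosphorylation genes they were -0.10 and 0.21 in U87MG, and -0.0034 and 0.29 in U251. A narrow spread was thus not particular to the members. At least 1.5-fold in U87MG, 2 members were higher in KD (MRPL53 and MRPS36; all rows: 7.68%) and 5 were lower in KD (MRPL1, MRPL16, MRPS5, MRPL10 and MRPL38; all rows: 11.5%). At the same size in U251, 1 member was higher in KD (MRPL12; all rows: 5.01%) and 0 were lower (7.73%). Past 2-fold in U87MG there were 0 higher members (2.33%) and 2 lower ones, MRPL1 and MRPL16 (3.58%), and in U251 0 higher (1.17%) and 0 lower (1.71%). These shares describe the members and are not a test.

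**Figure D2:**
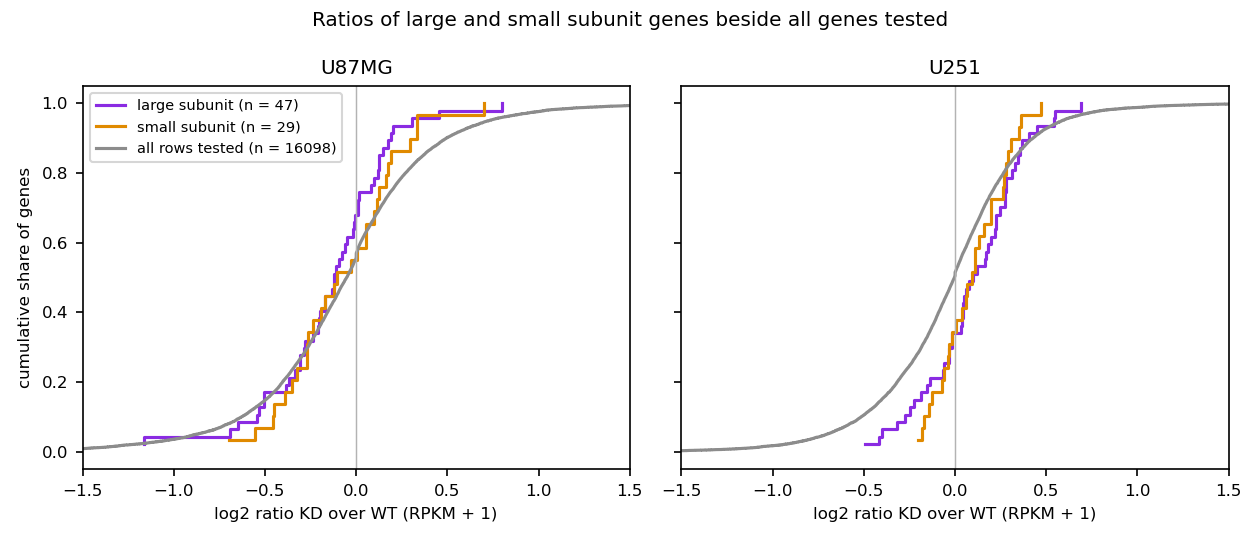
Cumulative share of genes by log2 ratio of KD over WT (RPKM + 1) in U87MG on the left and U251 on the right, for large subunit genes (purple, n = 47), small subunit genes (orange, n = 29) and all rows tested (grey, n = 16098). The curves of the subunits run close together in each line and are steeper than the grey curve; at 0 the large subunit curve is above the grey one in U87MG and both are below it in U251.

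Large and small subunit genes lay close together. In U87MG the median log2 ratio was -0.12 for the 47 large and -0.11 for the 29 small subunit genes, and 32 of 47 and 16 of 29 were lower in KD than in WT. In U251 the medians were 0.10 for large and 0.09 for small subunit genes, with 16 of 47 and 10 of 29 lower in KD. The large minus small difference of medians was -0.02 in U87MG and 0.0074 in U251, a small fraction of the spread among members, and genes are not replicates, so it has no test. Its sign or size moved with the processing, to 0.0081 in U87MG with MRPS18A and MRPS30 placed in the large subunit and to 0.040 in U251 after quantile normalization. Of the genes with an unadjusted p under 0.05 given above, MRPS36 was the sole one named for the small subunit.

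Summed levels told the same of each subunit as its median in direction. Large subunit mRNAs summed to 1709 RPKM in U87MG KD and 1878 RPKM in U87MG WT cells, and to 1781 RPKM in U251 KD and 1643 RPKM in U251 WT cells. Small subunit mRNAs summed to 1336 RPKM in U87MG KD and 1378 RPKM in U87MG WT cells, and to 1183 RPKM in U251 KD and 1112 RPKM in U251 WT cells. The large to small ratio of sums was 1.28 in U87MG KD and 1.36 in U87MG WT cells, and 1.505 in U251 KD and 1.477 in U251 WT cells. The ratio of medians was 0.969 in U87MG KD and 1.04 in U87MG WT cells, and 0.637 in U251 KD and 0.726 in U251 WT cells, so the sums placed U251 above U87MG and the medians placed it below. The symbols do not place every protein, since MRPS18A and MRPS30 sit in the large subunit of the mammalian particle; MRPS18A had log2 ratios of -0.03 in U87MG and 0.16 in U251, and MRPS30 of 0.13 and 0.07.

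Genes numbered with bacterial counterparts did not stand apart from later additions. Large subunit genes numbered 1 to 36 had medians of -0.13 in U87MG and 0.09 in U251 (n = 28), and those numbered 37 and above -0.11 and 0.17 (n = 19). Small subunit genes numbered 2 to 21 had medians of -0.07 and 0.11 (n = 16), and those numbered 22 and above -0.11 and 0.06 (n = 13).

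MRPL1 had the lowest estimate. It is the protein of the L1 stalk, the arm that guides spent tRNA out of the ribosome. Its level was 4.42 RPKM in U87MG KD and 11.1 RPKM in U87MG WT cells, and 17.4 RPKM in U251 KD and 21.9 RPKM in U251 WT cells. KD was below WT in both lines, and the reads gave a ratio of 0.397 in U87MG (95% Clopper-Pearson interval 0.328 to 0.479, counting error only, as for all intervals here) and 0.794 in U251 (0.714 to 0.882). The limma estimate was -0.74 ± 0.22 (SE, adjusted p = 0.114). It rested on 156 reads in U87MG KD cells, the fewest of any member, and 398 in U87MG WT cells.

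MRPL16, whose bacterial counterpart lies close to the tRNA at the peptidyl transferase centre, was low in U87MG KD alone. It stood at 18.2 RPKM in U87MG KD and 42.1 RPKM in U87MG WT cells, and at 55.9 RPKM in U251 KD and 57.2 RPKM in U251 WT cells. The ratio was 0.433 in U87MG (0.392 to 0.479) and 0.977 in U251 (0.914 to 1.04), where the interval holds 1. Across lines limma gave -0.60 ± 0.26 (SE, adjusted p = 0.238), the largest SE among the members.

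MRPL37, a mitochondrion-specific protein, was the most even of the 8 lowest between the lines, at 42.0 RPKM in U87MG KD and 61.7 RPKM in U87MG WT cells, and 44.3 RPKM in U251 KD and 62.7 RPKM in U251 WT cells. In each line KD was about 0.7 of WT, with ratios of 0.681 (0.644 to 0.720) in U87MG and 0.706 (0.669 to 0.746) in U251. Its limma estimate was -0.52 ± 0.16 (SE, adjusted p = 0.12).

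MRPL30, the counterpart of bacterial L30, was likewise lower in KD in each line, at 11.3 RPKM in U87MG KD and 16.8 RPKM in U87MG WT cells, and 10.2 RPKM in U251 KD and 13.9 RPKM in U251 WT cells. MRPL30 starts 21 bases from MITD1, which is read the other way, and MITD1 stood at 142 RPKM in U87MG KD and 74.9 RPKM in U87MG WT cells, and at 75.9 RPKM in U251 KD and 58.9 RPKM in U251 WT cells. These neighbours with facing starts thus lay on opposite sides of their WT levels. MRPL30 has a processed copy, MRPL30P1, listed at 9.86 and 15.5 RPKM in U87MG KD and WT cells and at 8.77 and 13.1 RPKM in U251 KD and WT cells, and how reads were shared between them is not given in the sources used here.

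The other 4 of the 8 lowest estimates were MRPL38, of the central protuberance, MRPS5, which lies near the mRNA entry of the small subunit, MRPL39 and MRPS18B. MRPS5 stood at 50.4 RPKM in U87MG KD and 82.4 RPKM in U87MG WT cells, and at 59.9 RPKM in U251 KD and 66.4 RPKM in U251 WT cells. MRPL38 was at 14.4 and 23.1 RPKM in U87MG KD and WT cells, and at 16.6 and 19.6 RPKM in U251 KD and WT cells. All 4 were lower in KD in both lines, with limma estimates between -0.44 and -0.32 and adjusted p between 0.217 and 0.316. In all, 12 members were lower in KD beyond counting error in both lines (all rows with recovered reads: 20.2%).

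MRPL53 had the highest estimate. Its protein sits at the base of the stalk that recruits translation factors. It was at 24.9 RPKM in U87MG KD and 13.9 RPKM in U87MG WT cells, and at 19.6 RPKM in U251 KD and 14.5 RPKM in U251 WT cells. KD exceeded WT in both lines, with ratios of 1.80 (1.53 to 2.11) in U87MG and 1.35 (1.14 to 1.60) in U251, and limma gave 0.60 ± 0.18 (SE, adjusted p = 0.109). A fraction of 0.51 of the 31-base words of the longest annotated MRPL53 transcript also occurs in another annotated gene, chiefly the overlapping CCDC142 on the same strand. That transcript has 1162 bases, and the gene model recovered from the RPKM has 655, so the fraction need not hold for the reads counted. CCDC142 was listed at 0.453 and 0.955 RPKM in U87MG KD and WT cells and at 2.37 and 1.58 RPKM in U251 KD and WT cells.

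MRPS36 came next. RefSeq names the gene KGD4, since the protein is now known as a subunit of the 2-oxoglutarate dehydrogenase complex rather than of the ribosome. It was at 13.2 RPKM in U87MG KD and 7.70 RPKM in U87MG WT cells, and at 13.7 RPKM in U251 KD and 11.0 RPKM in U251 WT cells. The estimate was 0.50 ± 0.18 (SE, limma, adjusted p = 0.168). Its copy MRPS36P1 was listed at a level near its own, at 13.9 and 13.1 RPKM in U87MG KD and WT cells and 15.7 and 14.7 RPKM in U251 KD and WT cells.

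MRPL36, a small large-subunit protein and the counterpart of bacterial L36, was at 44.5 RPKM in U87MG KD and 35.8 RPKM in U87MG WT cells, and at 44.5 RPKM in U251 KD and 32.3 RPKM in U251 WT cells. Its log2 ratios were 0.31 in U87MG and 0.45 in U251, and limma gave 0.38 ± 0.16 (SE, adjusted p = 0.236). The complex I gene NDUFS6 starts 34 bases away in the other direction and stood at 88.5 and 106 RPKM in U87MG KD and WT cells and at 112 and 131 RPKM in U251 KD and WT cells. Here too the neighbours lay on opposite sides of their WT levels, in each line.

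MRPL44, an RNase III-like protein near the exit tunnel, and MRPS10 and MRPS14, of the small subunit's head, completed the members with high estimates in both lines. MRPL44 was at 23.4 and 16.9 RPKM in U87MG KD and WT cells, and at 19.6 and 16.7 RPKM in U251 KD and WT cells. MRPS10 stood at 18.8 and 14.7 RPKM in U87MG KD and WT cells, and at 23.0 and 19.0 RPKM in U251 KD and WT cells. MRPS14 was at 6.45 and 5.07 RPKM in U87MG KD and WT cells, and at 15.9 and 12.9 RPKM in U251 KD and WT cells. Their limma estimates were 0.34, 0.30 and 0.29, with adjusted p between 0.299 and 0.3498. In all, 14 members were higher in KD beyond counting error in both lines (all rows with recovered reads: 14.6%).

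**Figure D3:**
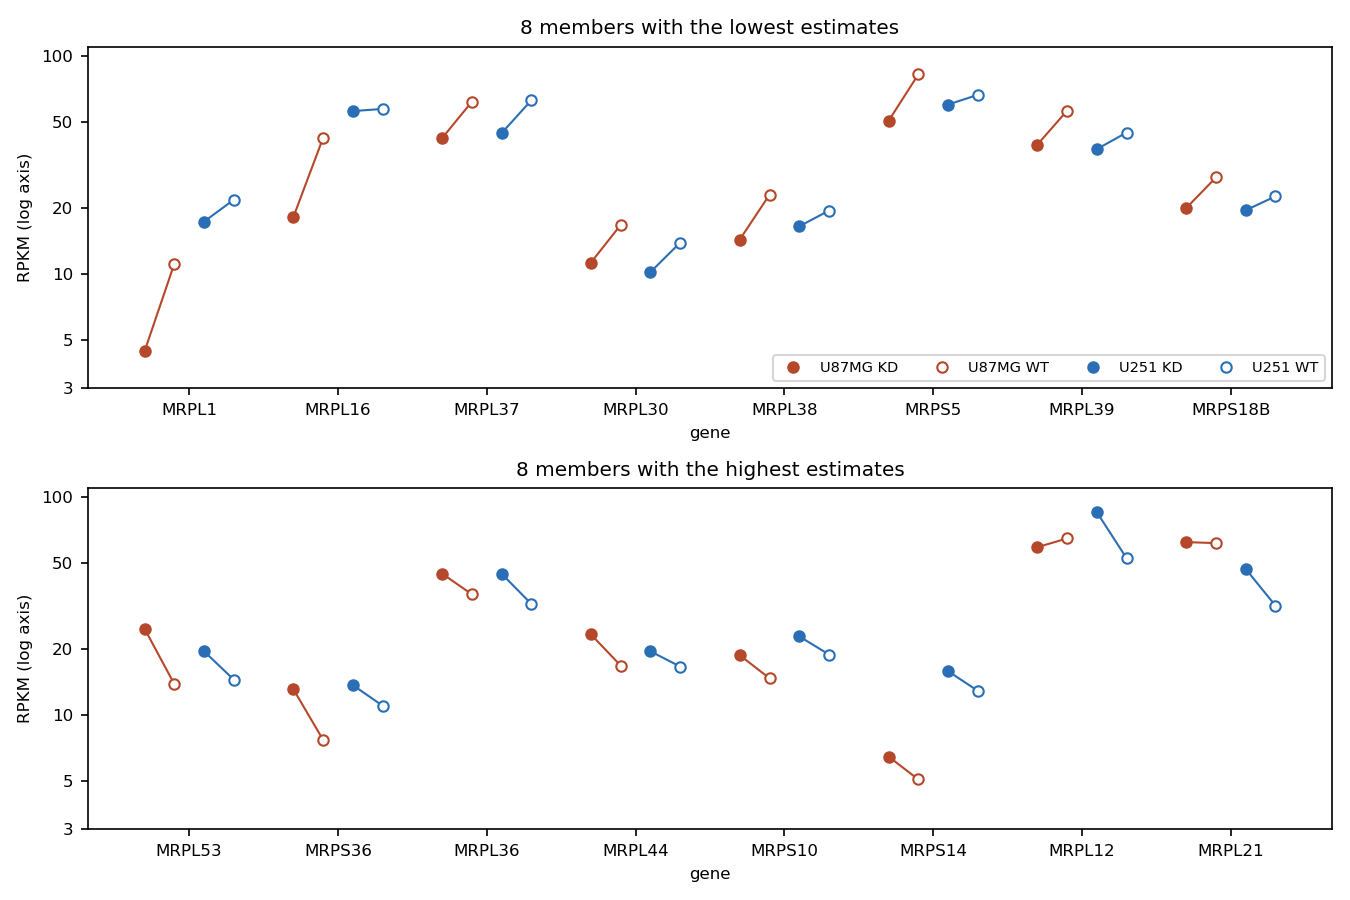
RPKM on a log axis for the 8 members with the lowest estimates (top) and the 8 with the highest (bottom); filled points are KD, open points WT, red U87MG and blue U251, and a line joins the arms of a cell line, each point being 1 library. In the top panel every KD point lies below its WT point, with MRPL1 the steepest in U87MG; in the bottom panel MRPL12 runs the other way in U87MG (58.9 RPKM in KD, 64.6 RPKM in WT).

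The stalk that recruits translation factors to the large subunit did not move as a unit. MRPL10 anchors it, and was at 10.6 RPKM in U87MG KD and 17.8 RPKM in U87MG WT cells, and at 11.3 RPKM in U251 KD and 8.75 RPKM in U251 WT cells. MRPL12, the factor-binding protein of the stalk, was at 58.9 RPKM in U87MG KD and 64.6 RPKM in U87MG WT cells, and at 85.2 RPKM in U251 KD and 52.3 RPKM in U251 WT cells. Both were below WT in U87MG KD and above WT in U251 KD, beyond counting error in each case when scaled by depth alone. The ratio for MRPL10 was 0.598 (0.536 to 0.667) in U87MG and 1.29 (1.13 to 1.46) in U251. For MRPL12 the ratio was 0.911 (0.850 to 0.977) in U87MG and 1.63 (1.52 to 1.74) in U251. Trimmed-mean factors, by which RPKM is divided, were 0.936 in U87MG KD and 0.997 in U87MG WT cells. They raise U87MG ratios, and no intervals were made with them. The U87MG result for MRPL12, with an upper limit of 0.977, thus depends on the scaling. MRPL11, which joins MRPL10 and MRPL12 at the base, was at 29.14 and 28.98 RPKM in U87MG KD and WT cells and at 15.2 and 15.6 RPKM in U251 KD and WT cells. A fraction of 0.67 of the 31-base words of the longest annotated MRPL12 transcript occurs in another annotated gene.

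In all, 12 members differed in direction between the lines beyond counting error, 11 of them lower in KD in U87MG and higher in KD in U251 (all rows with recovered reads: 5.63%) and 1 the other way (2.81%). Every count of members beyond counting error used ratios scaled by depth alone and was not repeated after trimmed-mean rescaling. Upper limits of the U87MG ratio were close to 1 for MRPL51 (0.977), MRPS28 (0.988) and MRPL27 (0.959). Lower limits of the U251 ratio were close to 1 for MRPL17 (1.001), MRPL46 (1.009) and MRPS9 (1.02). Among the 12, MRPL51 was at 107 and 116 RPKM in U87MG KD and WT cells, and at 90.9 and 77.6 RPKM in U251 KD and WT cells. MRPS17 was at 20.0 and 25.8 RPKM in U87MG KD and WT cells, and at 78.6 and 63.3 RPKM in U251 KD and WT cells. MRPS6, a counterpart of bacterial S6, was the exception in direction, at 106 and 83.8 RPKM in U87MG KD and WT cells, and at 43.8 and 49.4 RPKM in U251 KD and WT cells. MRPL34, low in U251 KD alone, was at 30.2 and 30.5 RPKM in U87MG KD and WT cells, and at 26.8 and 35.8 RPKM in U251 KD and WT cells. Of the 3 homologues of bacterial S18, MRPS18C had log2 ratios of -0.26 in U87MG and 0.20 in U251, MRPS18B was lower in KD in both lines (-0.45 and -0.20), and MRPS18A is given above.

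**Figure D4:**
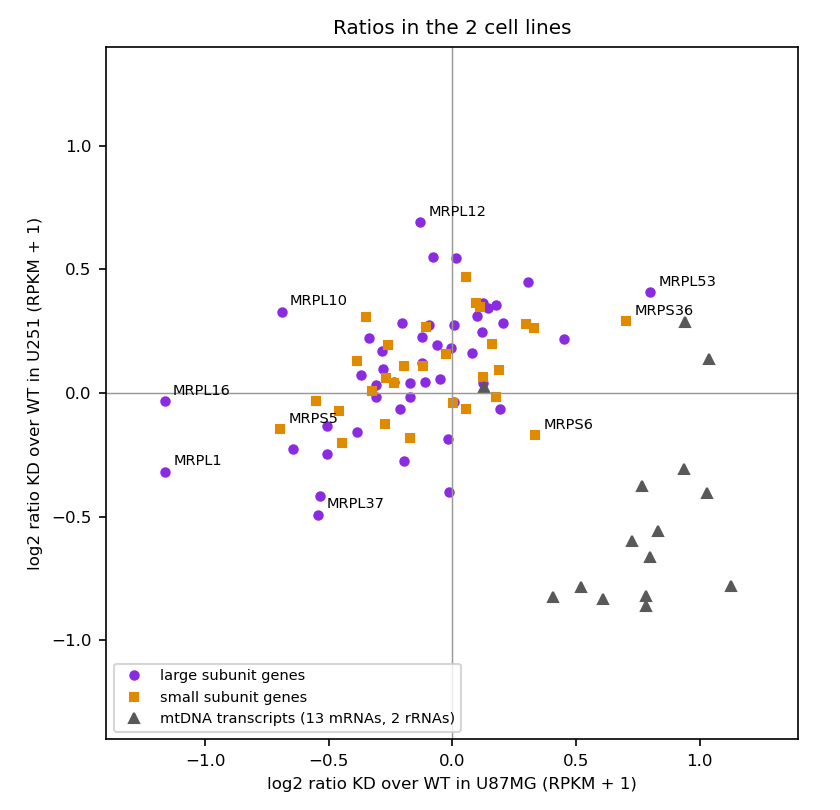
Each point is a gene, with its log2 ratio of KD over WT (RPKM + 1) in U87MG on the x axis and in U251 on the y axis, for large subunit genes (purple circles), small subunit genes (orange squares) and transcripts of mitochondrial DNA (grey triangles). Ribosomal protein genes gather round 0 with MRPL1, MRPL16 and MRPL10 to the left, while 12 of the 13 mitochondrial mRNAs lie at the lower right.

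The mRNAs that these ribosomes translate ran the other way round between the lines. All 13 protein-coding transcripts of mitochondrial DNA were higher in KD in U87MG (median log2 ratio 0.78), and 12 of 13 were lower in KD in U251 (median -0.66). After quantile normalization 9 were higher and 2 lower in U87MG (median 0.44), and 10 were lower and 2 higher in U251 (median -0.39). Together they summed to 37545 RPKM in U87MG KD and 22306 RPKM in U87MG WT cells, and to 40974 RPKM in U251 KD and 62540 RPKM in U251 WT cells. Limma across lines called 0 of 13, and 0 had an unadjusted p under 0.05. ND3 had the highest U87MG ratio, at 1896 RPKM in U87MG KD and 867 RPKM in U87MG WT cells. ND6, transcribed from the other strand, had the smallest ratios, at 0.13 in U87MG and 0.02 in U251. The ribosomal RNAs of the particle, RNR1 and RNR2, were higher in KD in both lines, RNR1 by log2 ratios of 0.94 in U87MG and 0.29 in U251, RNR2 by 1.04 in U87MG and 0.14 in U251. Mitochondrial RNAs with short tails can be caught in poly(A) libraries, and whether each of these RNAs, ND6 included, had a tail, or of what length, was not measured. Beside these, the median of the ribosomal protein genes was -0.12 in U87MG and 0.10 in U251 (-0.03 and 0.11 after trimmed-mean rescaling), and whether they are linked was not tested.

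Other parts of the same machine were counted from lists. The 8 genes of the list with symbols other than MRPL or MRPS, among them DAP3 and PTCD3 of the small subunit, GADD45GIP1 and ICT1 of the large, and the insertase OXA1L, had median log2 ratios of 0.06 in U87MG and 0.35 in U251, and limma called 0 of 8. All 8 were higher in KD in U251, DAP3 most, at 92.2 RPKM in KD and 58.4 RPKM in WT cells, beside 38.6 RPKM in U87MG KD and 32.0 RPKM in U87MG WT cells. AURKAIP1 had the lowest U87MG log2 ratio of the 8 (-0.35), at 75.2 and 96.4 RPKM in U87MG KD and WT cells. The 30 assembly factors had medians of -0.15 and 0.07, near those of the members, and 0 were called, with MTERFD2 lowest at -0.56 ± 0.16 (SE, limma, adjusted p = 0.105). The 17 translation factors had medians of -0.23 and -0.01 with 0 called. Of these GFM2, which helps split the ribosome for recycling, was at 12.9 and 21.1 RPKM in U87MG KD and WT cells, and at 22.2 and 29.9 RPKM in U251 KD and WT cells.

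Mitochondrial tRNA synthetases and their partners (20 genes) had medians of -0.21 in U87MG and -0.01 in U251, and 1 was called. SARS2, which charges serine tRNA, fell, at 1.70 RPKM in U87MG KD and 4.40 RPKM in U87MG WT cells, and 2.22 RPKM in U251 KD and 4.84 RPKM in U251 WT cells (-0.93 ± 0.17, SE, limma, adjusted p = 0.033). SARS2 overlaps the member MRPS12 on the opposite strand, and MRPS12 was at 15.2 and 16.6 RPKM in U87MG KD and WT cells and at 14.2 and 13.1 RPKM in U251 KD and WT cells. Among 16 genes of import, chaperones and proteases (medians 0.09 and 0.28) the chaperone gene HSPA9 rose, at 479 RPKM in U87MG KD and 308 RPKM in U87MG WT cells, and 397 RPKM in U251 KD and 249 RPKM in U251 WT cells (0.65 ± 0.14, SE, limma, adjusted p = 0.049). It was the sole gene called of the 16.

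Ribosomal proteins of the cytosol (83 measured) had medians of 0.02 in U87MG and 0.13 in U251. The 77 nuclear genes of oxidative phosphorylation had medians of 0.10 and 0.11, with 0 called. In U87MG these medians were above that of the mitochondrial ribosomal protein genes, and in U251 they were close to it. Of the nuclear regulators, NRF1 was at 4.01 and 5.78 RPKM in U87MG KD and WT cells and at 4.48 and 4.86 RPKM in U251 KD and WT cells, and YY1 at 34.6 and 38.2 RPKM in U87MG KD and WT cells and at 37.7 and 32.2 RPKM in U251 KD and WT cells. PPARGC1A, a coactivator of mitochondrial genes, was at 1.60 and 0.599 RPKM in U87MG KD and WT cells and at 3.77 and 1.79 RPKM in U251 KD and WT cells (0.74 ± 0.19, SE, limma, adjusted p = 0.0764). HCFC1, a transcriptional cofactor, was at 4.51 and 8.94 RPKM in U87MG KD and WT cells and at 8.20 and 11.1 RPKM in U251 KD and WT cells (-0.62 ± 0.18, SE, limma, adjusted p = 0.106). ESRRA, a nuclear receptor that works with PPARGC1A, was at 13.4 and 10.7 RPKM in U87MG KD and WT cells and at 7.99 and 5.44 RPKM in U251 KD and WT cells (0.39 ± 0.16, SE, limma, adjusted p = 0.225). Of the 10 regulators measured 0 were called.

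**Figure D5:**
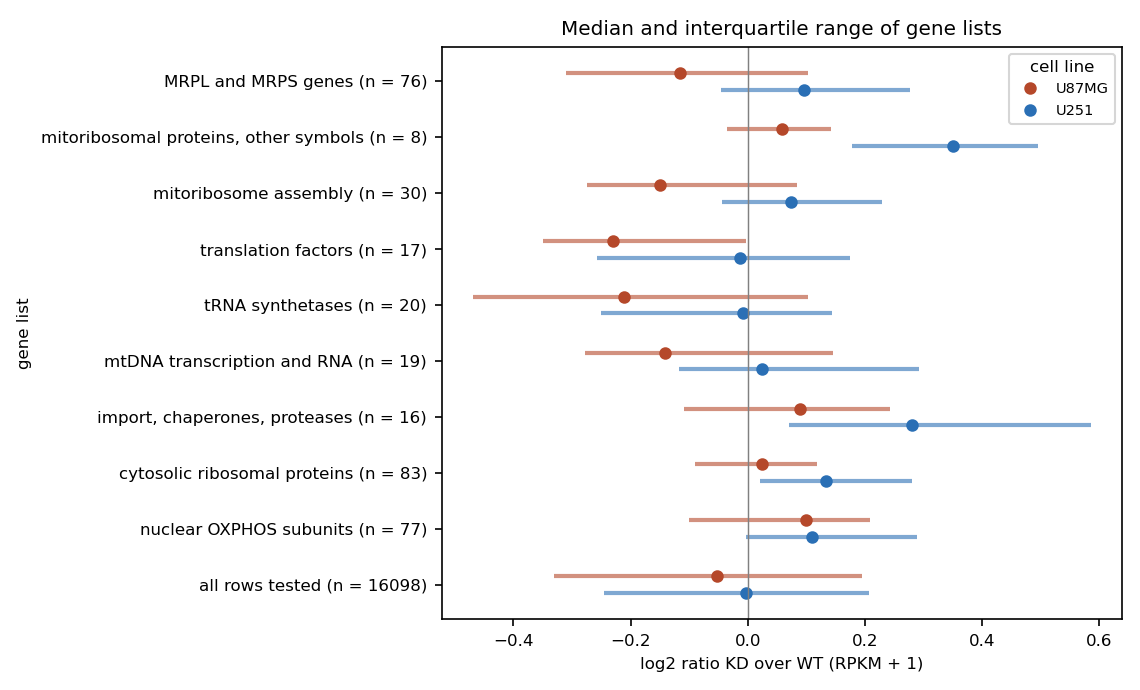
Median (point) and interquartile range (bar) of the log2 ratio of KD over WT (RPKM + 1) in U87MG (red) and U251 (blue) for the mitochondrial ribosomal protein genes, the related lists and all rows tested. The members, the assembly factors and the transcription and RNA genes have U87MG medians below 0 and U251 medians above 0; the nuclear oxidative phosphorylation genes are above 0 in both.

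Members with and without a promoter motif were set side by side. The 13 with the YY1 core had median log2 ratios of 0.12 in U87MG and 0.17 in U251, against -0.13 and 0.06 in the 55 without it. Of the 13, 8 were higher in KD in both lines, a count made after the values were seen, beside 22 of all 76 members and 29.3% of all rows, and the carriers ran between -0.65 (MRPL38) and 0.33 (MRPS10) in U87MG. The 29 with the ETS core had medians of -0.12 and 0.11, against -0.11 and 0.07 in the 39 without. The 42 with the SP1 core had medians of -0.12 and 0.09, the 10 with CACGTG -0.06 and 0.24, the 4 with TATAAA 0.19 and 0.13, and the 3 with the NRF1 core -0.26 and 0.20. The YY1 carriers were thus not alone in a median above 0 in both lines, and these medians have no test.

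Head-to-head starts were more frequent among the members than among all annotated protein-coding genes, a set that includes genes not measured here. A protein-coding gene on the other strand started within 1000 bases for 16 of 76 members (21.1%), against 1470 of 19927 protein-coding genes (7.38%) in GENCODE 29. The share among measured genes was not counted. MRPL46 and MRPS11, of the large and the small subunit, start 34 bases apart and are both among the 16. MRPL46 was at 32.2 and 39.4 RPKM in U87MG KD and WT cells and at 24.0 and 21.2 RPKM in U251 KD and WT cells. MRPS11 was at 16.2 and 20.6 RPKM in U87MG KD and WT cells and at 16.6 and 16.5 RPKM in U251 KD and WT cells. Both were below WT in U87MG KD, and in U251 KD MRPL46 was above WT and MRPS11 near it (log2 ratio 0.0070). Exons of 29 of 76 members overlap a gene on the opposite strand, and without a stated strand setting their reads cannot be told apart. For 5 of 76 members at least 50% of the 31-base words of the longest transcript occur in another gene (MRPL12, MRPL38, MRPL53, MRPS18A and MRPS28). The table also lists 96 pseudogene copies of 41 members, of which 34 were at 0 in every library and 4 had at least 50% of their member's level (MRPS36P1, MRPL30P1, MRPL11P2 and MRPL35P4).

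More members were called between the lines than between the arms, and this was not particular to them. Over all rows, limma called 1.16% higher and 2.61% lower in KD, fewer than between the lines. Limma with the arm in the fit called 28 of 76 members between U87MG and U251, 17 higher in U87MG (all rows: 21.6%) and 11 lower in U87MG (all rows: 27%). The large subunit had 8 higher and 6 lower, and the small subunit 9 higher and 5 lower. The highest log2 difference, 1.11 ± 0.17, was that of MRPS18A (SE, limma, adjusted p = 0.00128), at 27.7 and 28.2 RPKM in U87MG KD and WT cells against 13.2 and 11.7 RPKM in U251 KD and WT cells. MRPS33 and MRPS6 were higher by 1.04 and 1.01, and MRPL11 by 0.87. MRPS17 was lower in U87MG by most, at -1.59 ± 0.20 (SE, limma, adjusted p = 0.000526), with the levels given above. MRPL1 followed at -1.34, then MRPS14 at -1.19 and MRPL42 at -1.08. Of the 31-base words of the longest annotated transcript, a fraction of 0.62 for MRPS18A and 0.48 for MRPS17 occurs in another annotated gene. With no filter on low values, limma called 11 of 76, 7 higher and 4 lower in U87MG.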

How the data were processed

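Poly(A) RNA of 4 libraries (U87MG KD, U87MG WT, U251 KD and U251 WT) was sequenced. The authors deposited 1 table of RPKM values per gene. Reads were aligned with Bowtie 0.12.2 and the build was hg19, per the submitters' processing notes; these sources do not give the counting program, gene models or strand setting. RPKM fixes what 1 read is worth in a gene of given length, so whole reads were recovered (within 0.01 read) for 99.8% of 27973 genes. The same search gave whole reads for 0.8% of 500 genes, above 0 in all 4 libraries, whose values were first multiplied by random factors. Recovered reads served for depths and counting intervals alone.

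Values were tested as log2(RPKM + 1) in rows with at least 1 RPKM in at least 1 library, with limma 3.58.1 in R 4.3.3 (intensity trend in eBayes, cell line as block, two-sided, Benjamini-Hochberg, threshold 0.05), so fold changes understate those of low genes. KD and WT libraries are paired by being the same cell line. Nothing says that the libraries came from separate cultures, so p-values measure the spread between these libraries. The fit was tested on simulated data.

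Members and lists were chosen with earlier results of these data known. Genes named were the 8 highest and 8 lowest estimates among members with at least 5 RPKM, the 4 most different between lines in each direction, the 3 highest and lowest levels of each subunit, the 4 most higher and lower in U87MG, members of related lists by size of estimate, and known partners (calls among cytosolic ribosomal proteins are not reported here); neighbours, copies and motif carriers were added after their values were seen. Positions are from GENCODE 29 (GRCh38) and promoters from RefSeq (GRCh38.p14), not from the build of the files. Alternatives changed the pseudocount, the filter, the scaling, the trend, the block, the rows entering the fit and the subunit of MRPS18A and MRPS30, and left out each line.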

Additional observations from a re-analysis of the deposited data

Results flagged for a closer look

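Differences between the lines in the knockdown ratio were noted because the libraries of U87MG and of U251 lay on opposite sides of their WT levels; none of these differences was tested, since each line has 1 library per arm. The median log2 ratio of all 76 members differed by -0.21 (U87MG minus U251; -0.12 in U87MG, 0.10 in U251), with -0.22 for large and -0.20 for small subunit genes. Among single members the same difference was -1.02 for MRPL10, -0.82 for MRPL12, -0.66 for MRPS17, -0.56 for MRPL48, -0.48 for MRPL27, -0.46 for MRPL46, -0.46 for MRPS18C, -0.38 for MRPL17, -0.37 for MRPS28, -0.35 for MRPL51 and -0.30 for MRPS9. MRPS6 ran the other way, at 0.51. All of these are from values scaled by depth alone, where the difference of the line medians over all rows was -0.049. After trimmed-mean rescaling it was -0.14 for the 76 members and 0 over all rows.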

How the results depend on the processing

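The fit without the pairing by line (no replicate block) called 0 of 76 members between KD and WT, with 0 at an unadjusted p under 0.05, and 0 of the large and 0 of the small subunit. With mRNA rows alone, 1 member was called, 1 of the large subunit (MRPL1). With no filter, 11 members were called between U87MG and U251, against 28. The large minus small difference of medians in U251 was 0.040 after quantile normalization, and that in U87MG was 0.0081 with MRPS18A and MRPS30 in the large subunit; the cause was not tested. Medians of all members kept their sign in each line under the other pseudocounts and scalings, between -0.12 and -0.03 in U87MG and between 0.06 and 0.11 in U251. The remaining alternatives cannot move these medians, since each ratio is taken within a line, so they say nothing about them. Trimmed-mean rescaling turned the sign of estimates near 0 for MRPL11 (0.038), MRPL55 (0.017), MRPS17 (0.029), MRPS18C (0.019) and MRPS22 (0.036), and quantile normalization that of MRPL11 (0.0075), MRPL55 (0.013) and MRPS15 (-0.0061). Leaving out either line leaves the ratio of the other with no test, and its sign turned for 34 of the 76 members, 13 of them among the 35 named by rule: MRPL10 (-0.69 to 0.33), MRPL11 (-0.036 to 0.0075), MRPL12 (-0.13 to 0.69), MRPL33 (-0.097 to 0.28), MRPL42 (-0.064 to 0.19), MRPL51 (-0.12 to 0.22), MRPL55 (-0.11 to 0.045), MRPS6 (-0.17 to 0.34), MRPS15 (-0.017 to 0.18), MRPS17 (-0.35 to 0.31), MRPS18A (-0.026 to 0.16), MRPS18C (-0.26 to 0.20) and MRPS22 (-0.039 to 0.0045). With 1 library per line and arm, neither counting depth nor these settings show how far another culture would differ.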
